A study of Mus musculus with 4 samples.

Results

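The integrin genes described here are 10 rows of the deposited expression tables, 8 coding for alpha subunits (Itga2b, Itga4, Itga5, Itga6, Itga9, Itgal, Itgam, Itgav) and 2 for beta subunits (Itgb1, Itgb3). They were named by symbol, and all 10 were found among the 24411 genes of the tables. The study compared Dis3-/- with wild-type hematopoietic stem cells of C57BL/6 mice by RNA-seq, with 2 libraries of 100 sorted cells for each genotype. Dis3-/- cells came from Dis3fl/fl;Mx-Cre marrow and wild-type cells from Dis3fl/fl marrow without Cre, so both genotypes carried the floxed allele. Whole marrow was transplanted into CD45.1 mice after lethal irradiation. At 4 weeks pIpC, a synthetic double-stranded RNA that switches on the interferon-driven Mx promoter and with it Cre, was injected at 300 µg on days 0 and 2. Cells negative for lineage markers and CD48 and positive for EPCR and CD150 were sorted on day 4. The Mx promoter responds to interferon in many cell types and is not restricted to stem cells. The protocol text, 1 wording for all samples, is taken to mean that wild-type grafts were injected too, and no source used here states the age of the mice. Dis3 is a ribonuclease of the RNA exosome, which removes and matures many nuclear transcripts.

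Integrins are adhesion receptors made of 1 alpha and 1 beta subunit that span the cell membrane. The beta 1 subunit pairs with many alpha subunits, among them alpha 4, alpha 5, alpha 6, alpha 9 and alpha v, whereas beta 3 pairs with alpha IIb and alpha v, and the leukocyte alpha L and alpha M chains pair with beta 2. On hematopoietic stem cells they hold cells to fibronectin, laminin and VCAM1 in the marrow and take part in homing after transplantation. Cytoplasmic talin and kindlin bind the beta tails and shift the receptor to its high-affinity form.

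Library totals ranged from 6085367 to 6442740 expected counts in Dis3-/- and from 6251761 to 6818535 in wild-type libraries. Dis3 stood at 23.6 and 30.2 CPM (counts scaled to a common library total) in Dis3-/- libraries, against 55.9 and 53.2 CPM in wild-type libraries, a log2 fold change of -1.02 ± 0.14 (SE) with an edgeR adjusted p of 0.000258. Which exons are floxed is not stated in the sources used, and reads from outside the deletion are counted too. Procr, the gene of the sort marker EPCR, was at 40.1 and 46.0 CPM in Dis3-/- libraries and at 43.1 and 40.5 CPM in wild-type libraries. Slamf1, the gene of CD150, was at 21.0 and 25.2 CPM in Dis3-/- and at 30.4 and 18.9 CPM in wild-type libraries, and the ranges of both sort genes overlapped between genotypes. Cd48, whose product was sorted against, was detected at 13.8 and 14.2 CPM in Dis3-/- and at 17.6 and 24.1 CPM in wild-type libraries, and did not pass (-0.57 ± 0.21, edgeR adjusted p = 0.0627), though it did in 5 alternatives (adjusted p = 0.0165 to 0.0312). Of 12244 genes tested, 2811 differed between genotypes (23.0%), with 1561 higher (12.7%) and 1250 lower (10.2%) in Dis3-/- cells.

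Levels of different genes were compared in TPM, a unit that also divides by transcript length, given as mean ± SD over 2 libraries. Itgb1, the common beta subunit gene, was the most abundant of the 10, at 116 ± 7.05 TPM in Dis3-/- and 141 ± 0.212 TPM in wild-type cells. Itga4 (72.4 ± 7.98 TPM in Dis3-/-, 105 ± 6.58 TPM in wild-type cells) and Itga6 (71.7 ± 8.58 TPM in Dis3-/-, 101 ± 1.09 TPM in wild-type cells) came next, and their library ranges overlapped in either genotype. Itga5 followed at 38.0 ± 1.84 TPM in Dis3-/- and 41.6 ± 0.856 TPM in wild-type cells. These 4 genes held the same order in both genotypes, and only the step between Itga4 and Itga6 lay within the spread of the libraries.

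Lower in the order stood Itga2b at 23.8 ± 10.7 TPM in Dis3-/- and 38.4 ± 8.47 TPM in wild-type cells, a level that overlapped that of Itgb3 in Dis3-/- and that of Itga5 in wild-type cells. Itgb3 was at 19.3 ± 0.728 TPM in Dis3-/- and 23.5 ± 4.67 TPM in wild-type cells. Itgav had 17.2 ± 0.615 TPM in Dis3-/- and 26.3 ± 2.43 TPM in wild-type cells. In wild-type cells Itgav, Itgb3, Itgal and Itgam formed a run in which each neighbour overlapped the next, while in Dis3-/- cells Itgb3, Itgav, Itgal, Itgam and Itga9 were apart from each other in both libraries. The 3 scarcest genes were Itgal (9.31 ± 2.07 TPM in Dis3-/-, 19.4 ± 3.56 TPM in wild-type cells), Itgam (5.54 ± 0.318 TPM in Dis3-/-, 15.7 ± 2.43 TPM in wild-type cells) and Itga9 (2.67 ± 0.0919 TPM in Dis3-/-, 9.75 ± 1.61 TPM in wild-type cells).

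**Figure D1:**
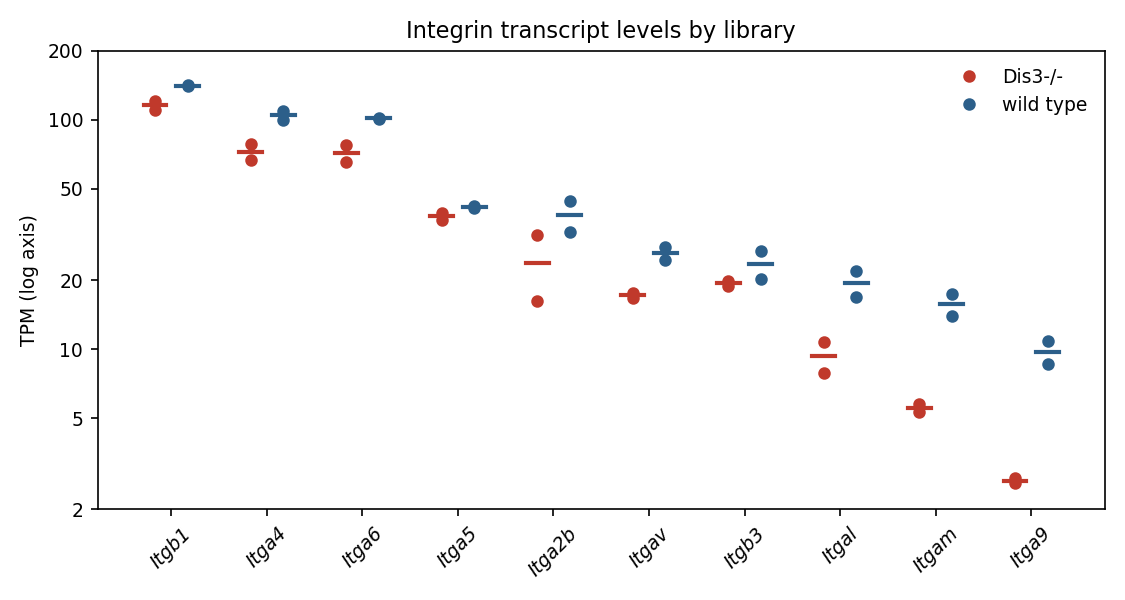
TPM (log axis) of the 10 integrin genes, ordered by wild-type level, with 1 point for each library and a bar at the mean of 2 libraries, Dis3-/- in red and wild type in blue. Itgb1, Itga4 and Itga6 lie at the top in both genotypes, and the points of Itgal, Itgam and Itga9 are farthest apart between genotypes.

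All 10 genes passed the filter on low counts and were tested. Of these, 6 fell in Dis3-/- cells, 0 rose and 4 did not pass, against 10.2% called lower and 12.7% called higher among all genes tested. Itga9, Itgam, Itgal, Itgav, Itga4 and Itga6 fell, in order of size. DESeq2 and limma-voom also called 6 lower and 0 higher. At an unadjusted p under 0.05 edgeR had 8 lower and 0 higher, beside 4362 of all 12244 genes in either direction. The median log2 fold change over the 10 genes was -0.458, beside -0.0027 over all genes tested. Over genes in the same bins of transcript length as these 10, the medians ran from -0.156 to -0.032. In CPM the libraries of the genotypes did not overlap for 7 of the 10, all lower in Dis3-/- cells, as was the case for 30.5% of all genes tested (62.4% in either direction). In TPM all 10 were lower without overlap, beside 41.6% of all genes, on a scale that moved the median of all genes by -0.108 on log2(TPM + 1) and by -0.111 on log2(TPM + 0.1). Of the 10 genes, 2 were called lower with a log2 fold change of -1 or less, as were 1.56% of all genes tested. With limma on log2(TPM + 1) and no filter on low values, 2 of the 6 calls held, those of Itga9 and Itgam, while the other 4 had an adjusted p of 0.0561 to 0.0814. All 6 values were below 0. In these bulk libraries fewer cells of a type and less RNA per cell cannot be told apart.

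**Figure D2:**
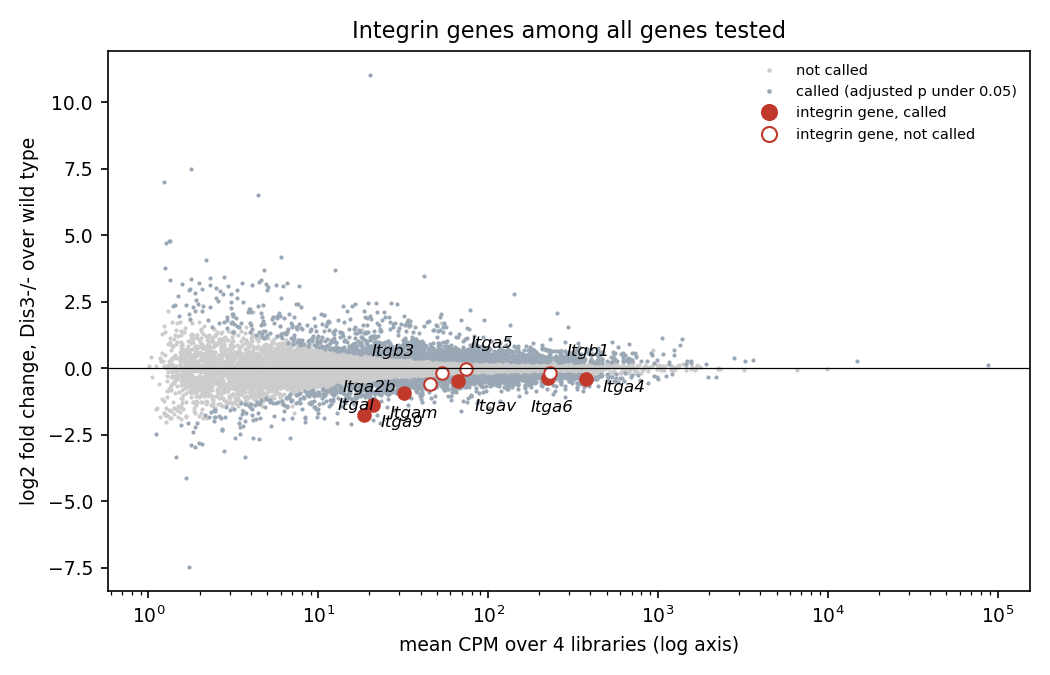
Log2 fold change (Dis3-/- over wild type) against mean CPM (log axis) for the 12244 genes tested, 1 point a gene, with called genes in darker grey and the 10 integrin genes in red, open where not called. The 6 filled red points lie below 0, and the scarcer of them lie lowest.

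Promoters are shown for the members that fell and have an entry (Itga9, Itgam, Itgav and Itga4) and, beside them, for Itga5, the member with the fold change nearest to 0, so that their letters can be compared. The RefSeq table of GRCm38.p6 (mm10) gave promoter windows, from 250 bases before to 50 after a start site, for 7 of the 10 genes. Gene positions given further on are from RefSeq on the same assembly. Capitals mark GAGGAA or its reverse complement TTCCTC, the core of sites for the ETS family factor PU.1, and windows without it are all in lower case. The windows run 5′ to 3′ on the gene's strand, and that of Itga9 belongs to a start 104983 bases inside the annotated gene, that of Itgav to a start 2094 bases inside.
Itga9 (chr9:118711442-118711741, plus strand): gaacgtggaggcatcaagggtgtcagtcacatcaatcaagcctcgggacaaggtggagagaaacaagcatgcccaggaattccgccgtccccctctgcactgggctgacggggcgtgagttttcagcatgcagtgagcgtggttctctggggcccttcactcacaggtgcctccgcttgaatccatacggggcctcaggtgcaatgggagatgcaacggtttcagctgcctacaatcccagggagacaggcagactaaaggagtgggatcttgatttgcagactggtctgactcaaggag
Itgam (chr7:128062390-128062689, plus strand): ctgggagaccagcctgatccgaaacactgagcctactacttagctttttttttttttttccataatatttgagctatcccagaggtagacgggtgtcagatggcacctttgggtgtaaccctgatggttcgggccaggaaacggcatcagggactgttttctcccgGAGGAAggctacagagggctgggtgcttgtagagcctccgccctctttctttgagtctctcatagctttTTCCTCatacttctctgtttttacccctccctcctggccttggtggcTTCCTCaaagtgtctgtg
Itgav (chr2:83724147-83724446, plus strand): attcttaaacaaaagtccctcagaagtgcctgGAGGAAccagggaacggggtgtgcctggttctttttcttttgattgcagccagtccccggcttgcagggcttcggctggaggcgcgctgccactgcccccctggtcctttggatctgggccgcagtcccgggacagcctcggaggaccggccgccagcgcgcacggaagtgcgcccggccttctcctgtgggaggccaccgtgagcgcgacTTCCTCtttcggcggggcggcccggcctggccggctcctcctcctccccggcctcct
Itga4 (chr2:79255176-79255475, plus strand): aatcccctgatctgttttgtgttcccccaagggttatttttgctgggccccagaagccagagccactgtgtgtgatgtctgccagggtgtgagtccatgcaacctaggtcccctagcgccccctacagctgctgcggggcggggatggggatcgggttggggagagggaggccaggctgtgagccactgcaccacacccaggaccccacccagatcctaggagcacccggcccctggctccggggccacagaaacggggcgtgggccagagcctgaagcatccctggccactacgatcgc
Itga5 (chr15:103366742-103367041, minus strand): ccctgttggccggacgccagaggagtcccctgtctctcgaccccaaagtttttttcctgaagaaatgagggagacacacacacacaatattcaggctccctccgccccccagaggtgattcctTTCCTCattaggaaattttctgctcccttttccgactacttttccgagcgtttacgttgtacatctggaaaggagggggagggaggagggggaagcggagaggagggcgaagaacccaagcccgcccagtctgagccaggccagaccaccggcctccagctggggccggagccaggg

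The motif stood at 3 places in the Itgam window, at 2 in that of Itgav and at 1 in that of Itga5, and it was not found in the Itga4 and Itga9 windows. Among all 32851 promoters of the same length 28.3% held it. Of the other windows, that of Itga2b held 2 matches and that of Itgb1 held 1. AGATAA or its reverse complement TTATCT, a form of the site read by GATA factors, was in 0 of the 7 windows and in 11.2% of all promoters. Both strands were searched for either motif. The Itgb1 and Itgav windows held 27 and 24 CpG dinucleotides at 67.3% GC each. The Itgam window held 6 CpG at 50.3% GC, and the median over all promoters was 7 CpG and 52.7% GC. Itga4 and Itga9 had 10 CpG each, Itga5 had 13 and Itga2b had 6.

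Itga9 (chromosome 9, 118606709 to 118901003, plus strand) fell most. It codes for the alpha 9 subunit, which pairs with beta 1 and binds tenascin C, osteopontin and VCAM1. It had 52 and 52 counts in Dis3-/- libraries, against 219 and 160 counts in wild-type libraries, which is 8.75 and 8.13 CPM in Dis3-/- and 31.6 and 25.4 CPM in wild-type libraries. The 2 Dis3-/- libraries nearly coincided and lay far below both wild-type libraries. Its log2 fold change reached -1.76 ± 0.20 (SE; edgeR adjusted p = 5.89e-05), which puts the level at 29.6% of wild type. Only 68 of the 12244 genes tested had a lower log2 fold change. Itga9 overlaps the antisense gene model Gm2415 over 10929 bases in the GENCODE M21 annotation of the same assembly. Whether counting used the strand is not stated in the sources used, so reads of such partners cannot be told apart. The same holds for Gm13684 on the other strand of Itgav. Of 4 models that overlap the GENCODE form of Itga6, 2 lie on the same strand, where a strand setting would not separate the reads.

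Itgam (chromosome 7, 128062640 to 128118491, plus strand) codes for the alpha M chain, CD11b, which with beta 2 forms the complement receptor Mac-1 of myeloid cells. Its level was 11.3 and 11.9 CPM in Dis3-/- libraries, against 26.8 and 34.0 CPM in wild-type libraries. Both Dis3-/- values were below both wild-type values, with a log2 fold change of -1.39 ± 0.19 (SE; edgeR adjusted p = 0.000214). CD11b is a usual target of lineage antibodies, though the antibodies of this sort are not stated in the sources used. Gm49368, a GENCODE gene model on the same strand, spans nearly all of Itgam, so the value can include its reads. The summed TPM of 12 granulocyte genes was 148 and 145 in Dis3-/- libraries, against 237 and 219 in wild-type libraries, with Ctsg, Fcnb and Mmp8 at 0 counts. By edgeR 2 of 3 tested genes were lower, beside 10.2% lower among all genes tested, while DESeq2 called 1 lower and limma-voom 2. The lower sum lay in Csf3r (70.0 and 74.0 TPM in Dis3-/-, 134 and 125 TPM in wild-type libraries) and Prtn3 (49.1 and 46.6 TPM in Dis3-/-, 92.2 and 72.0 TPM in wild-type libraries). The neutrophil gene S100a8, which was not tested, went the other way (12.9 and 15.2 TPM in Dis3-/-, 5.35 and 8.76 TPM in wild-type libraries), and S100a9 did not pass (0.91 ± 0.73, edgeR adjusted p = 0.403). The sum of 10 monocyte and macrophage genes was 462 and 451 TPM in Dis3-/- libraries, against 512 and 542 TPM in wild-type libraries, with Ly6c2 at 0 counts. That difference lay in Lyz2 (421 and 404 TPM in Dis3-/-, 472 and 500 TPM in wild-type libraries), and the other tested genes, Cd68 (0.37) and Mpeg1 (0.29), had log2 fold changes above 0. By edgeR 0 of the 3 tested genes of that list was called and 0 had an unadjusted p under 0.05, and DESeq2 and limma-voom called 0. The part of these cell types in the Itgam value was not tested.

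Itgal (chromosome 7, 127296139 to 127335137, plus strand) codes for the alpha L chain, CD11a, which with beta 2 forms LFA-1, the receptor of ICAM proteins on leukocytes. It stood at 25.6 and 18.1 CPM in Dis3-/- libraries, against 36.3 and 48.0 CPM in wild-type libraries. Replicates of either genotype differed, but the genotypes did not overlap. The test gave -0.95 ± 0.19 on the log2 scale (SE; edgeR adjusted p = 0.00252). Both leukocyte alpha chains thus fell to 51.9% (Itgal) and 38.2% (Itgam) of wild type. Their partner gene Itgb2, the beta 2 subunit, stood at 66.7 and 63.5 CPM in Dis3-/- libraries, against 74.8 and 78.1 CPM in wild-type libraries, and did not pass (-0.23 ± 0.10, edgeR adjusted p = 0.120). It passed with limma on log2(TPM + 1) and log2(TPM + 0.1) after the filter, at an adjusted p of 0.0371 and 0.0378, and not without the filter (adjusted p = 0.0623). The TPM ratio of Itgam to Itgb2 was 0.101 and 0.112 in Dis3-/- libraries, against 0.215 and 0.261 in wild-type libraries. That of Itgal to Itgb2 was 0.206 and 0.153 in Dis3-/- libraries, against 0.260 and 0.329 in wild-type libraries. Ratios are given as descriptions, with no test.

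Itga4 (chromosome 2, 79255426 to 79333114, plus strand) codes for the alpha 4 subunit, which with beta 1 forms VLA-4, a receptor of VCAM1 and fibronectin that retains stem cells in the marrow. It had 302 and 344 CPM in Dis3-/- libraries, against 448 and 417 CPM in wild-type libraries. The highest Dis3-/- library lay below the lowest wild-type one, giving a log2 fold change of -0.42 ± 0.08 (SE; edgeR adjusted p = 0.00218). Itga4 overlaps Cerkl on the other strand over 2581 bases, and Cerkl had 14.4 to 28.3 counts a library, against 1796.6 or more for Itga4. With an offset for transcript length, fitted over all genes, the value of Itga4 was -0.27 (adjusted p = 0.0209). Itga6 (chromosome 2, 71786886 to 71858427, plus strand), the alpha 6 laminin receptor subunit, had 180 and 208 CPM in Dis3-/- libraries, against 253 and 254 CPM in wild-type libraries. The wild-type libraries nearly coincided, and the Dis3-/- libraries were both lower (-0.39 ± 0.09, SE; edgeR adjusted p = 0.00517). With the length offset the value of Itga6 was -0.27 (edgeR adjusted p = 0.0312). These well-measured genes thus fell to 74.8% (Itga4) and 76.6% (Itga6) of wild type.

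Itgav (chromosome 2, 83722303 to 83806917, plus strand) codes for alpha v, which binds vitronectin and other ligands with an RGD motif and pairs with several beta subunits. It stood at 54.2 and 55.5 CPM in Dis3-/- libraries, against 81.8 and 73.0 CPM in wild-type libraries. The Dis3-/- libraries agreed closely and lay below the wild-type ones (log2 fold change -0.50 ± 0.11, SE; edgeR adjusted p = 0.00497). Of its beta partner genes, Itgb3 and Itgb5 are given here and Itgb1 further on. Itgb3 (chromosome 11, 104608000 to 104670476, plus strand), the beta 3 subunit, had 52.3 and 48.3 CPM in Dis3-/- libraries, against 64.0 and 49.1 CPM in wild-type libraries. The first wild-type library was high and the genotypes overlapped (-0.17 ± 0.14, SE; 95% interval -0.46 to 0.12; edgeR adjusted p = 0.403). Without wild type replicate 1 the value of Itgb3 was 0.037, and without wild type replicate 2 it was -0.35, neither of them called. Itgb5, the beta 5 subunit, had 3.37 and 2.03 CPM in Dis3-/- libraries, against 6.92 and 4.45 CPM in wild-type libraries, and did not pass (-1.08 ± 0.44, edgeR adjusted p = 0.0923).

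Itga2b (chromosome 11, 102453297 to 102469883, minus strand) codes for alpha IIb, CD41, which with beta 3 forms the fibrinogen receptor of platelets and is also found on part of the stem cells. It stood at 48.3 and 24.2 CPM in Dis3-/- libraries, against 45.2 and 63.0 CPM in wild-type libraries. Its SE was the largest of the 10 genes, as Dis3-/- replicate 1 lay between the wild-type values and Dis3-/- replicate 2 below both. The log2 fold change of -0.58 ± 0.24 did not pass (SE; 95% interval -1.09 to -0.073; edgeR adjusted p = 0.0936). It passed without a filter on low counts (-0.58, adjusted p = 0.000335). Without wild type replicate 1 it was -0.80, and without Dis3-/- replicate 1 it was -1.15. Without wild type replicate 2 and without Dis3-/- replicate 2 it was -0.33 and -0.16. In each of these fits 1 library stood for a genotype. The TPM ratio of Itga2b to Itgb3 overlapped between genotypes, at 1.58 and 0.859 in Dis3-/- libraries and 1.21 and 2.20 in wild-type libraries. The summed TPM of 16 megakaryocyte genes was 730 and 668 in Dis3-/- libraries, against 1036 and 989 in wild-type libraries, with Gp6 at 0 counts. By edgeR 6 of 12 tested genes were lower, beside 10.2% lower among all genes tested, while DESeq2 called 3 lower and limma-voom 5. The list did not move as a whole: Selp (0.0017) and Nfe2 (0.10) had log2 fold changes near 0 and did not pass, and the platelet factor gene Pf4 overlapped between genotypes (56.4 and 29.4 TPM in Dis3-/-, 43.2 and 31.3 TPM in wild-type libraries). Their part in the Itga2b value was not tested.

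Itgb1 (chromosome 8, 128685654 to 128733579, plus strand), the beta 1 subunit, had 210 and 223 CPM in Dis3-/- libraries, against 242 and 246 CPM in wild-type libraries. Both Dis3-/- libraries were lower, but the difference did not pass (log2 fold change -0.17 ± 0.08, SE; 95% interval -0.34 to -0.0076; edgeR adjusted p = 0.123). On log2(TPM + 1) and log2(TPM + 0.1) values it passed with limma, at -0.28 and -0.29 (adjusted p = 0.0369 and 0.0387), values that include the shift of all genes on the TPM scale. Itga5 (chromosome 15, 103344286 to 103366791, minus strand), the alpha 5 fibronectin receptor subunit, had 77.6 and 70.5 CPM in Dis3-/- libraries, against 75.5 and 74.6 CPM in wild-type libraries. The wild-type values lay between the Dis3-/- ones, with a log2 fold change of -0.02 ± 0.10 (SE; 95% interval -0.24 to 0.20; edgeR adjusted p = 0.911). It was 0.052 after correction for transcript length and 0.051 without Dis3-/- replicate 2.

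**Figure D3:**
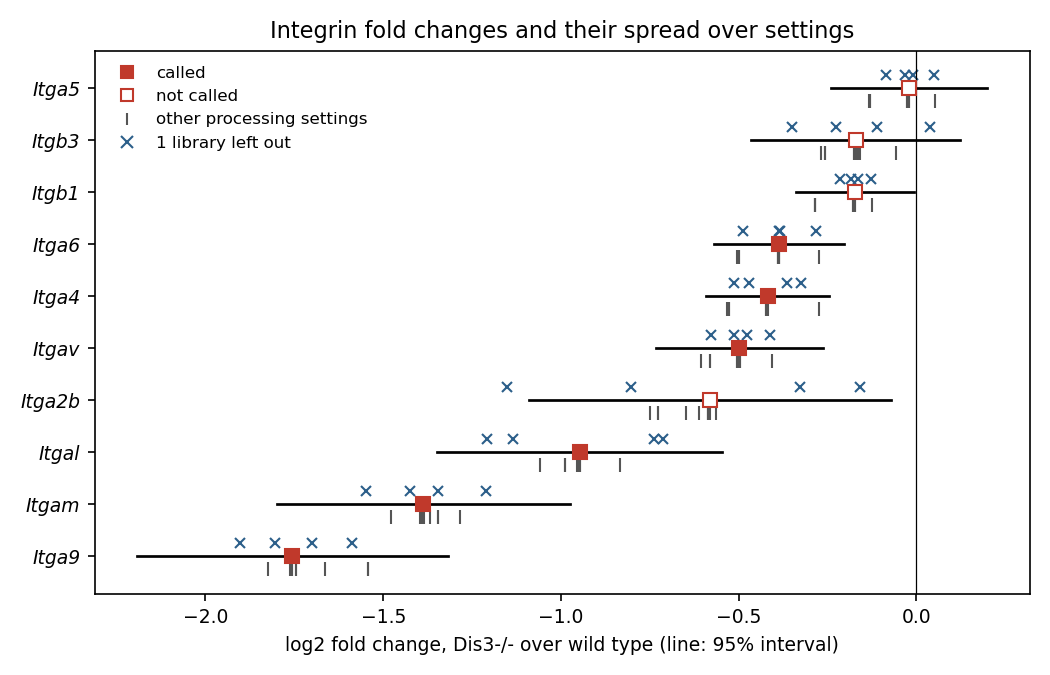
Log2 fold changes (Dis3-/- over wild type) of the 10 integrin genes from edgeR, with squares filled where called and lines for the 95% interval, grey ticks for 10 other processing settings and blue crosses for the 4 fits that leave out 1 library. The ticks and crosses of Itga9 and Itgam stay below -1, those of Itga2b run from -1.15 to -0.16, and those of Itga5 and Itgb3 lie on either side of 0.

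The summed TPM of the 8 alpha genes was 239 and 243 in Dis3-/- libraries, against 356 and 358 in wild-type libraries. The 2 beta genes summed to 131 and 140 TPM in Dis3-/- libraries, against 168 and 161 TPM in wild-type libraries. Within the alpha sum, Itga5 made up 16.5% and 15.1% in Dis3-/- libraries, against 11.9% and 11.4% in wild-type libraries, and these ranges were apart. Itga5 itself did not rise (38.0 TPM in Dis3-/-, 41.6 TPM in wild-type cells), and its larger share goes with the smaller alpha sum. Shares were not tested. Itga9 made up 1.14% and 1.07% in Dis3-/- libraries, against 3.06% and 2.40% in wild-type libraries. Itgam took 2.23% and 2.38% in Dis3-/- libraries, against 3.92% and 4.85% in wild-type libraries, and Itgal took 4.51% and 3.23% in Dis3-/- libraries, against 4.75% and 6.12% in wild-type libraries. The shares of Itga4, Itga6, Itgav and Itga2b overlapped between genotypes. Itga4 and Itga6 each held 27.5% to 32.2% of the sum in Dis3-/- libraries and 27.9% to 30.7% in wild-type libraries.

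**Figure D4:**
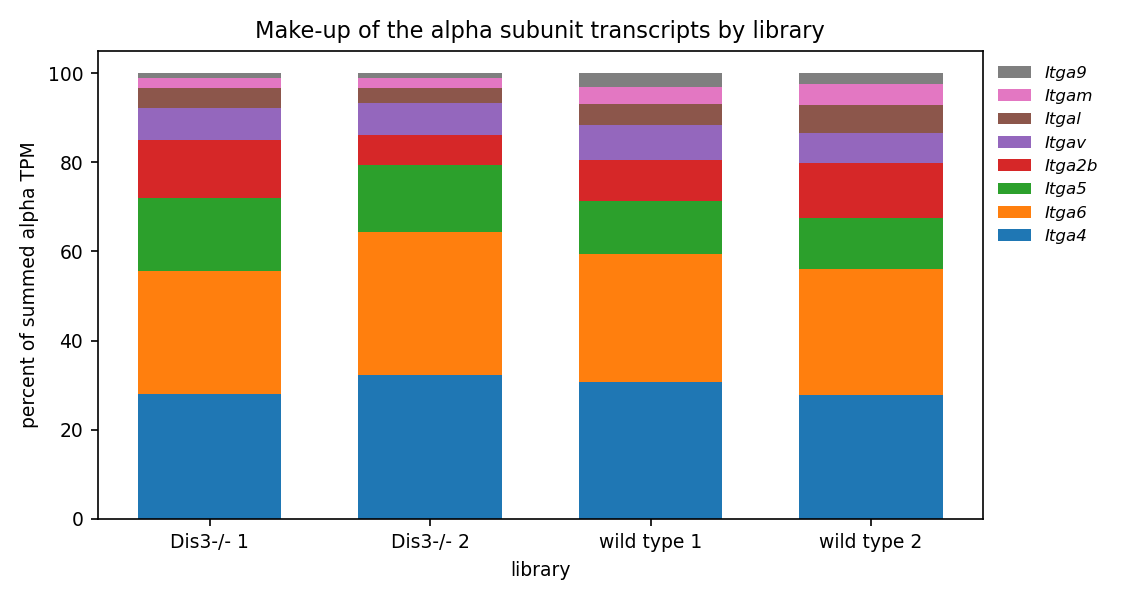
Percent of the summed TPM of the 8 alpha genes taken by each gene, as stacked bars that reach 100 in each of the 4 libraries. Itga4 and Itga6 fill the lower part of every bar, the Itga5 band is wider in the Dis3-/- bars, and the Itga9, Itgam and Itgal bands at the top are narrower there.

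Transcripts of the alpha subunits named above as partners of beta 1 were also set against Itgb1, with no test. The TPM ratio of Itga4 to Itgb1 was 0.603 and 0.647 in Dis3-/- libraries, against 0.774 and 0.710 in wild-type libraries. For Itga6 it was 0.593 and 0.644 in Dis3-/- libraries, against 0.723 and 0.714 in wild-type libraries. For Itga9 it was 0.0247 and 0.0215 in Dis3-/- libraries, against 0.0771 and 0.0611 in wild-type libraries. For Itgav it was 0.151 and 0.146 in Dis3-/- libraries, against 0.198 and 0.174 in wild-type libraries. These ratios were all lower in both Dis3-/- libraries. That of Itga5 to Itgb1 was higher, at 0.355 and 0.304 in Dis3-/- libraries against 0.299 and 0.291 in wild-type libraries. Itga4 also pairs with beta 7, and its ratio to Itgb7 overlapped between genotypes, at 2.50 and 3.55 in Dis3-/- and 2.68 and 2.23 in wild-type libraries.

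Of 17 other integrin subunit genes, 7 passed the filter, and of these 2 fell and 0 rose, where 10.2% of all genes were lower. DESeq2 and limma-voom each called 1 lower and 0 higher. At an unadjusted p under 0.05 edgeR had 4 lower and 0 higher, beside 4362 of all 12244 genes in either direction. Itgb7, the beta 7 partner of alpha 4 in binding the gut addressin MAdCAM-1, had 31.6 and 25.3 CPM in Dis3-/- libraries, against 43.7 and 48.9 CPM in wild-type libraries (-0.70 ± 0.15, edgeR adjusted p = 0.00392). Itga2, the collagen receptor subunit alpha 2, had 12 and 14 counts in Dis3-/- libraries, against 28 and 47 counts in wild-type libraries (-1.43 ± 0.46, edgeR adjusted p = 0.0380). The Itga2 call ended without wild type replicate 2 (-0.93, adjusted p = 0.365), without Dis3-/- replicate 1 (-1.37, adjusted p = 0.107) and without Dis3-/- replicate 2 (-1.49, adjusted p = 0.108), and with DESeq2 (adjusted p = 0.122), limma-voom (adjusted p = 0.0625) and TPM values (adjusted p = 0.0709 to 0.137). Itga3 (-0.46 ± 0.30), Itgb4 (-0.31 ± 0.35) and Itga10 (0.15 ± 0.46) did not pass, at an edgeR adjusted p of 0.299, 0.569 and 0.857, and Itgb4 and Itga10 changed sign when 1 wild-type library was left out. Itga3 was -0.16 without wild type replicate 1, -0.71 without wild type replicate 2, -0.88 without Dis3-/- replicate 1 and -0.12 without Dis3-/- replicate 2, not called in any of them. Itgb2l and Itgb8 had 0 counts in all 4 libraries, where 3 counts correspond to 0.432 to 0.505 CPM.

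Genes of integrin activation and of the link to actin were read from a list of 39. Of 33 tested genes of activators and cytoskeletal linkers, 4 rose and 6 fell, beside 12.7% higher and 10.2% lower among all genes, with a median log2 fold change of -0.0054. DESeq2 called 1 higher and 5 lower, and limma-voom 4 higher and 6 lower. Actn4, which codes for the actin cross-linker alpha-actinin 4, had 346 and 338 CPM in Dis3-/- libraries, against 261 and 274 CPM in wild-type libraries (0.35 ± 0.07, edgeR adjusted p = 0.00358). The kinase gene Syk (-0.41 ± 0.09, edgeR adjusted p = 0.00529), the vinculin gene Vcl (-0.44 ± 0.11, edgeR adjusted p = 0.00910) and Ptk2b, which codes for the adhesion kinase Pyk2 (-0.33 ± 0.08, edgeR adjusted p = 0.00962), fell. The call of Vcl ended without Dis3-/- replicate 2 (-0.29, adjusted p = 0.0832).

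Of 19 tested genes of integrin inhibitors and trafficking, 1 fell and 0 rose, beside 10.2% lower and 12.7% higher among all genes. Limma-voom called 1 lower and DESeq2 0. At an unadjusted p under 0.05 edgeR had 1 higher and 2 lower, beside 4362 of all 12244 genes in either direction. The gene called lower by edgeR was Acap1, which codes for an Arf6 regulator of integrin recycling. It had 190 and 171 CPM in Dis3-/- libraries, against 214 and 218 CPM in wild-type libraries (-0.26 ± 0.08, edgeR adjusted p = 0.0358). Acap1 was no longer called on leaving out either wild-type library (adjusted p = 0.0966 and 0.106) or Dis3-/- replicate 2 (adjusted p = 0.215), with DESeq2 (adjusted p = 0.0657) and with the replicate number as a block (adjusted p = 0.0564). Krit1 (-0.25 ± 0.10), the beta 1 tail inhibitor gene Itgb1bp1 (0.43 ± 0.19) and Arf6 (0.17 ± 0.08) did not pass, at an edgeR adjusted p of 0.0939, 0.129 and 0.142.

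Of 17 tested ligand genes, 2 rose and 1 fell, beside 12.7% higher and 10.2% lower among all genes. The fibronectin gene Fn1, whose product is bound by alpha 4, alpha 5 and alpha v integrins, had 25.4 and 35.3 CPM in Dis3-/- libraries, against 17.6 and 19.2 CPM in wild-type libraries (0.73 ± 0.19, edgeR adjusted p = 0.0127). The laminin chain gene Lama5 rose (0.70 ± 0.18, edgeR adjusted p = 0.0119) and the laminin chain gene Lama3 fell (-1.95 ± 0.46, edgeR adjusted p = 0.00816). None of these 3 passed with limma on TPM values (adjusted p = 0.0830 to 0.312). Without Dis3-/- replicate 2 Fn1 was not called (0.47, adjusted p = 0.150), nor was Lama5 (0.51, adjusted p = 0.0805). Without wild type replicate 1 Lama5 was at 0.43 (adjusted p = 0.0841), and without Dis3-/- replicate 1 Lama3 was at -1.48 (adjusted p = 0.0528). Icam2, a ligand of LFA-1, stood at 32.8 and 31.4 CPM in Dis3-/- and at 22.5 and 24.9 CPM in wild-type libraries and did not pass (0.44 ± 0.15, edgeR adjusted p = 0.0521). It passed narrowly in 4 alternatives (adjusted p = 0.0453 to 0.0491).

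Of 13 tested membrane partners of integrins, 3 fell and 0 rose, where 23.0% of all genes were called in either direction and 10.2% were lower. DESeq2 called 1 lower and 0 higher, and limma-voom 3 lower and 1 higher. At an unadjusted p under 0.05 edgeR had 3 lower and 2 higher, beside 4362 of all 12244 genes in either direction. The tetraspanin gene Cd37 had 40.7 and 47.5 CPM in Dis3-/- libraries, against 67.7 and 70.2 CPM in wild-type libraries (-0.64 ± 0.12, edgeR adjusted p = 0.00177). The tetraspanin gene Tspan32 (-0.27 ± 0.08, edgeR adjusted p = 0.0287) and the urokinase receptor gene Plaur (-0.72 ± 0.22, edgeR adjusted p = 0.0291) fell too. Tspan32 was not called on leaving out wild type replicate 1 (adjusted p = 0.177) or either Dis3-/- library (adjusted p = 0.0605 and 0.0847), nor with DESeq2 (adjusted p = 0.0649). The Plaur call ended without wild type replicate 1 (-0.58, adjusted p = 0.0785) or Dis3-/- replicate 2 (-0.30, adjusted p = 0.187), with DESeq2 (adjusted p = 0.380) and with robust empirical Bayes (adjusted p = 0.323). It also missed on log2(TPM + 0.1) (adjusted p = 0.0504) and on unfiltered log2(TPM + 1) (adjusted p = 0.167), and leaving out Dis3-/- replicate 1 gave -1.29. The tetraspanin gene Cd81 did not pass (0.22 ± 0.08, edgeR adjusted p = 0.0561).

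Of 12 tested genes of other adhesion and homing receptors, 8 fell and 0 rose, where 10.2% of all genes were lower (median log2 fold change -0.352, beside -0.0027 over all genes). DESeq2 called 7 lower and 0 higher, and limma-voom 8 lower and 0 higher. At an unadjusted p under 0.05 edgeR had 8 lower and 0 higher, beside 4362 of all 12244 genes in either direction. The guidance receptor gene Robo4 had 23.9 and 33.3 CPM in Dis3-/- libraries, against 56.6 and 69.4 CPM in wild-type libraries (-1.13 ± 0.16, edgeR adjusted p = 0.000265). The adhesion molecule gene Pecam1 (-0.67 ± 0.10, edgeR adjusted p = 0.000378) and Alcam (-0.65 ± 0.12, edgeR adjusted p = 0.00145) fell as well.

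Further marker lists were read beside the integrins, with edgeR calls set beside 12.7% higher and 10.2% lower among all genes tested. The 8 endothelial and stromal genes summed to 48.6 and 57.2 TPM in Dis3-/- libraries, against 76.7 and 79.3 TPM in wild-type libraries, with 1 of 4 tested genes lower. That gene was Pdgfrb (-1.88 ± 0.26, edgeR adjusted p = 0.000200), while Cdh5, Cxcl12, Lepr and Col1a1 had 0 to 3 counts a library and were not tested. The sums of the 11 lymphoid genes (305 and 259 TPM in Dis3-/-, 288 and 372 TPM in wild-type libraries) and of the 10 erythroid genes (255 and 192 TPM in Dis3-/-, 213 and 226 TPM in wild-type libraries) overlapped between genotypes, with 1 of 4 tested genes lower in either list. Those genes were Flt3 (-0.89 ± 0.13, edgeR adjusted p = 0.000314) and Gata1 (-2.01 ± 0.32, edgeR adjusted p = 0.000664). Most of the lymphoid sum came from Nkg7 and most of the erythroid sum from Hbb-bt, neither of them called. Cd3e, Ms4a1, Il7r, Hbb-bs, Hba-a2 and Car1 were at 0 counts. The 6 cycling genes summed to 681 and 741 TPM in Dis3-/- libraries, against 269 and 313 TPM in wild-type libraries, and all 6 rose. The 7 interferon genes summed to 268 and 313 TPM in Dis3-/- libraries and 335 and 235 TPM in wild-type libraries, with 1 gene higher. The 12 stem cell genes summed to 1719 and 1702 TPM in Dis3-/- libraries, against 2212 and 1877 TPM in wild-type libraries, with 1 higher (Ly6a) and 4 lower (Kit, Hlf, Mllt3 and Fgd5). Of these 12, DESeq2 called 0 higher and 3 lower, and limma-voom 1 higher and 4 lower. Of the interferon genes DESeq2 called 0 and limma-voom 1 higher, and of the cycling genes DESeq2 called 5 and limma-voom 6 higher. The part of these lists in the integrin values was not tested.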

How the data were processed

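RamDA-seq, a full-length method that primes total RNA with not-so-random primers, was run on 100 sorted cells for each of 4 libraries, followed by Nextera XT, per the labels' protocols. The build mm10 and the tools RSEM (1.3.3), STAR (2.7.8a) and Trim Galore (0.6.6) stand in the submitters' processing notes. Annotation and strand setting were not stated in the sources used. The authors deposited expected counts per gene, not normalized, of which 92.3% to 92.6% were exactly whole. They also deposited TPM, with each library summing to 1000000. The files held 0 columns of other samples.

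Expected counts were rounded, and genes were kept by filterByExpr (minimum count 10, minimum total 15). After TMM scaling, edgeR (4.0.16, under R 4.3.3) ran a 2-sided quasi-likelihood test with Benjamini-Hochberg adjustment over 12244 genes and a threshold of 0.05. Log2 fold changes put Dis3-/- over wild type. Their SE was derived from the F statistic, and 95% intervals used the test's degrees of freedom. CPM used TMM-scaled library sizes. Floors of 3 counts cover counting error only. Alternatives used DESeq2 (1.42.0), limma (3.58.1), DESeq2 size factors, robust empirical Bayes, no filter, TPM with pseudocounts of 1 and 0.1, offsets over 20 bins of effective transcript length (length-corrected), a replicate block, and leaving out each library. A fit that leaves out 1 library has 1 library in that genotype, so its p-value holds no spread within that genotype. The procedure was tested on simulated counts.

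The members and lists were chosen with earlier results of these data known. All members, Dis3, the sort marker genes, every tested other integrin gene and up to 4 genes with the smallest p per pathway list are named. Some genes of the lists are not reported here. The design text speaks of 2 mice without tying libraries to animals, so p-values measure the spread between these samples, which may be technical.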

Additional observations from a re-analysis of the deposited data

How the results depend on the processing

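Of 14 alternatives, 13 kept all 6 integrin calls, and the exception was limma on log2(TPM + 1) without a filter, which called 2 of the 10 genes and 950 genes in all, against 2811 with edgeR. DESeq2 called 1742 genes in all. All 6 stayed below 0 in every alternative. Leaving out each library in turn gave 6 to 7 integrin genes and 2112 to 2352 genes in all. With the replicate number as a block (replicate block) 6 integrin genes and 2614 genes were called. Differences between replicates 1 and 2 correlated at -0.0293 between genotypes over genes, so the numbers were not taken to pair libraries. Of the named calls, the block ended that of Acap1. Values near 0 changed sign. Itga5 was 0.052 with length correction and, on leaving out libraries, -0.086 to 0.051. Itgb3 was -0.35 to 0.037, Itga10 -0.21 to 0.65, Itgb4 -0.76 to 0.38, Procr -0.059 to 0.14 and Slamf1 -0.40 to 0.29 on leaving out libraries. Procr was also -0.069 on log2(TPM + 1), with and without a filter, -0.070 on log2(TPM + 0.1) and -0.058 with length correction. The cause was not tested. The share difference of Itga5 in the alpha sum was 2.68 percentage points in expected counts, against 4.13 in TPM. Over the alternatives the calls ranged from 4 to 12 among activators and linkers (10 with edgeR), 0 to 1 among inhibitors (1), 0 to 7 among ligands (3), 1 to 4 among membrane partners (3), 6 to 8 among other adhesion receptors (8) and 1 to 2 among other integrins (2). Between 52 and 76 counts a Dis3-/- library lay behind Itga9 and Itgam, the fewest of the 10 genes.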
